A study of Mus musculus with 191 samples.

Results

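The genes described here are 40 genes of mitosis, taken as a named list from the tables of 5 mouse tissues by matching Ensembl identifiers to mouse symbols. All 40 had rows in bone marrow, gut, lung and ear skin, and 33 had rows in liver, where Cdc25c, Bub1, Ttk, Espl1, Aurkb, Cenpe and Cep55 had none. By role they are 9 genes of mitotic entry, 7 of the spindle checkpoint and mitotic exit, 4 of the chromosomal passenger complex, 7 of chromosome structure, 3 of centromere and kinetochore, 4 of the spindle and 6 of cytokinesis. In bone marrow, gut, liver and lung of C57BL/6 mice with the genotype WT, 18 libraries from mice given the antibody anti Ly6G (1A8), directed at a neutrophil surface marker (anti-Ly6G in the following), were set against 18 from mice given IgG. Both antibodies were given at 3 µg per g of body weight on 2 consecutive days, and each treatment had 3 mice at each of ZT 1, 5, 9, 13, 17 and 21 (Zeitgeber time, hours after lights on). The labels speak of normal and of 12 h inverted light cabinets without saying which mice were in which, so an effect of the cabinets cannot be told apart from ZT. Ear skin came from 16 Mrp8CRE; iDTR mice, 15 Mrp8CRE; Bmal1-flox mice and 16 control mice, with 1 mouse per genotype and ZT. In iDTR mice a diphtheria toxin receptor is turned on where Cre is made, the Mrp8 promoter being used to aim Cre at neutrophils, and the mice were given diphtheria toxin (DT) at 10 µg per kg for 2 days. The Bmal1-flox mice carry a floxed clock gene meant to be lost in neutrophils and had no treatment. Control mice were labelled WT, C57BL/6 and DT.

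Several labels and libraries stood apart. Gt(ROSA)26Sor, the transcript of the locus where the iDTR allele sits, had medians of 0.604 units of normalized signal (units in the following, on a linear scale) in iDTR, 26.3 in Bmal1-flox and 0.798 in control skin, so the label WT of the control mice is in doubt. In lung the clock gene Nr1d1 peaked at 23.5 h in anti-Ly6G and 1.92 h in IgG, against 7.63 and 8.38 h in gut, so the lung labels of ZT or treatment are in doubt. In gut, 2 anti-Ly6G libraries, at ZT 1 and ZT 13, held 39273 units of male accessory gland markers and 946 units of exocrine pancreas markers, against highest IgG sums of 321 and 347. The gut libraries had rows for 7 of 7 goblet, 8 of 9 crypt and 6 of 9 enterocyte markers, without Apoa4, Sis and Lct. Depth, as recovered expected counts, was between 7.68 M and 30.9 M per library. In bulk tissue, fewer cells of a type and less RNA per cell cannot be told apart.

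Mitosis begins when cyclin B (Ccnb1, Ccnb2) and its kinase Cdk1 are freed from inhibition by the kinase Wee1 through the phosphatases Cdc25b and Cdc25c. It ends when the anaphase-promoting complex with its activator Cdc20 marks cyclin B and securin for destruction and separase (Espl1) opens the sister chromatids. Most of these genes are transcribed late in the cell cycle, in G2 and M phase. Their promoters are known for CCAAT boxes, bound by NF-Y, and for the cell cycle genes homology region (CHR, TTTGAA), bound by MuvB complexes that carry repressors in resting cells and B-Myb or Foxm1 in dividing ones. Wee1 differs: in mouse liver it is a known target of the clock activators CLOCK and BMAL1, through E-boxes.

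The promoters printed below all hold both TTTGAA and CCAAT, as most searched members do. Not all members hold both: Ccnb1 had no TTTGAA and Anln no CCAAT. RefSeq windows (GRCm38.p6) of 250 bases before to 50 after the start were available for 32 of the 40 members, and Kif20a, Wee1, Incenp, Ccna2, Smc4, Aurkb, Cdc25c and Tpx2 were not searched. Both strands were searched, and no searched motif contains another. TTTGAA was in the windows of 24 of 32 members (75.0%), against 20.2% of 27025 genes in the table, 14.7% of 11211 genes tested in gut and 5 of 40 genes of DNA replication. In 22 of the 24 it lay between 100 bases before the start and the end of the window. CCAAT was in 25 of 32 (78.1%), against 41.1% of all genes and 24 of 40 replication genes, and 16 members held 2 or more. Both motifs were in 21 of 32 (65.6%), against 7.97% of all genes and 4 of 40 replication genes. The E-box CACGTG was in 3 of 32 (Ttk, Espl1 and Anln; 9.38%, against 8.09% of all genes), and the D-box TTATGTAA or TTACATAA in 0 of 32, against 1.11%. A match is a string of letters and not a measured site. The 5 promoters printed here, from 150 bases before the start onward, belong to members whose values are given below, and capitals mark TTTGAA or CCAAT or their reverse complements TTCAAA or ATTGG.
Ccnb2 (chr9:70421525-70421704, minus strand): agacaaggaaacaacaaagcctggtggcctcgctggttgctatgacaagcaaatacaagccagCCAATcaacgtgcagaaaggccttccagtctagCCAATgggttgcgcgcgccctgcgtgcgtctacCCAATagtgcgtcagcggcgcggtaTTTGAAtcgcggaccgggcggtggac
Cdk1 (chr10:69352883-69353062, minus strand): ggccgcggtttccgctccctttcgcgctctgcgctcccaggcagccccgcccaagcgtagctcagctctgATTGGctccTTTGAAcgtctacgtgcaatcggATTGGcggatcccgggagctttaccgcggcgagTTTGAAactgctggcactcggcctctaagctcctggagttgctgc
Cdc20 (chr4:118437314-118437493, minus strand): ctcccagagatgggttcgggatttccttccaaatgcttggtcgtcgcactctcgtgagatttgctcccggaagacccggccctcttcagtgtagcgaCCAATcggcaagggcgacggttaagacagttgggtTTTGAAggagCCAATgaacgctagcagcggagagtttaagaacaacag
Top2a (chr11:99024160-99024339, minus strand): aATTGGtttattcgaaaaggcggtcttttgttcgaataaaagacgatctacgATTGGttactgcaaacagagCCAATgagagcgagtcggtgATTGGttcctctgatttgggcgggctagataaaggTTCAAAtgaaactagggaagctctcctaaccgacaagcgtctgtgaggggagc
Kif11 (chr19:37376232-37376411, plus strand): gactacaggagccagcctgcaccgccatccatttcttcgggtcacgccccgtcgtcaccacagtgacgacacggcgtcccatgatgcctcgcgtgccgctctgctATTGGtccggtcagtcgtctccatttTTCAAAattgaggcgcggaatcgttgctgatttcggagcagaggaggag

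The tables of the 5 tissues were normalized separately, so levels across them are a rough guide. Per kb of exon, the median member averaged 36.2 units in bone marrow IgG, 3.98 in gut IgG, 0.247 in liver IgG, 0.827 in lung IgG and 3.98 in control skin. In bone marrow IgG the highest member per kb was Mki67, the proliferation antigen that coats mitotic chromosomes, at 239.6 units, and the lowest was Cdc25c at 4.55. The summed signal of the members was lowest at 8204, had a median of 9575 and reached 10458 units in bone marrow anti-Ly6G libraries, against 8071, 10212 and 12037 in IgG. In liver the sums ran between 38.7 and 71.9 units in anti-Ly6G and between 49.4 and 83.5 in IgG. Levels in liver were close to the filter of low values, and 15 of its 33 listed members passed the filter of a mean of at least 1 unit. All 40 passed in bone marrow, gut and skin, and 38 in lung, where Cdc25c and Ttk did not.

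In gut the mitosis genes followed a 24 h wave over the labelled ZT in both treatments. The running number in the titles of gut, bone marrow and liver libraries rises with ZT. A daily pattern and a change over the order of these numbers therefore cannot be told apart in these tissues. All 40 members were rhythmic in anti-Ly6G gut and all 40 in IgG gut (limma F test of a 24 h wave, Benjamini-Hochberg adjusted p under 0.05), where 24.6% and 33.6% of all tested genes were. The highest mean was at ZT 1, early in the light phase, for 39 of 40 members in anti-Ly6G and 36 of 40 in IgG. The lowest was at ZT 13, early in the dark phase, for 31 and 39 members. Without the 2 anti-Ly6G libraries with gland and pancreas transcripts, both counts remained 40 (limma). Leaving out 1 ZT gave 39 or 40, the 39 without ZT 5 in either treatment and without ZT 13 or ZT 17 in anti-Ly6G.

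**Figure D1:**
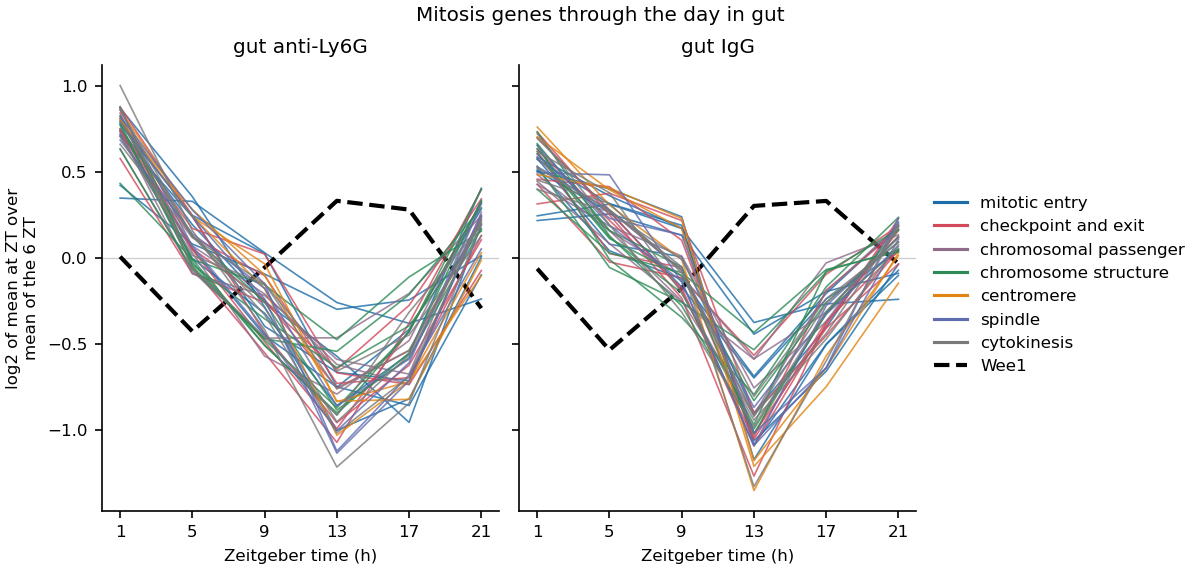
Mean of each mitosis gene at each ZT in gut, as log2 of the mean over the mean of the 6 ZT, in anti-Ly6G (left) and IgG (right) mice, with 1 line per gene coloured by role and Wee1 dashed in black. Apart from Wee1, lines are high at ZT 1 and low at ZT 13 or ZT 17 in nearly all members.

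Among the genes of mitotic entry, Ccnb1 in gut at ZT 1 had 26.5, 31.7 and 35.8 units in the anti-Ly6G mice, against 20.2, 28.1 and 28.6 in the IgG mice. At ZT 13 it had 5.79, 6.50 and 13.3 units in anti-Ly6G and 5.78, 8.77 and 9.94 in IgG. The ZT 1 and ZT 13 libraries did not overlap within either treatment. The fitted wave of Ccnb1 had a peak-to-trough fold of 3.31 with a peak at 1.99 ± 0.44 h (SE) in anti-Ly6G, and 2.74 with a peak at 2.74 ± 0.53 h in IgG. Cdk1, the kinase it activates, had folds of 2.56 and 1.94 with peaks at 0.54 ± 0.41 and 0.82 ± 0.59 h. Plk1, a kinase of mitotic entry and spindle assembly, had the smallest anti-Ly6G fold of the 39 members other than Wee1, 1.53, against 1.55 in IgG. Cdc25b, the phosphatase that starts Cdk1 activation at the centrosome, peaked last among these 39, at 4.05 ± 0.57 h in anti-Ly6G and 4.37 ± 0.61 h in IgG. Wee1, which restrains Cdk1, ran the other way.

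Wee1 in gut at ZT 13 had 12.5, 12.8 and 13.6 units in anti-Ly6G and 11.7, 13.3 and 14.8 in IgG. At ZT 5 it had 7.57, 7.59 and 7.81 units in anti-Ly6G and 6.25, 8.01 and 8.05 in IgG. The groups at these times did not overlap, and the inhibitor was high when most other members were low. Its wave peaked at 14.8 ± 1.03 h with a fold of 1.46 in anti-Ly6G (limma adjusted p = 0.018) and at 16.5 ± 0.80 h with a fold of 1.63 in IgG (limma adjusted p = 0.00142). Leaving out ZT 5 ended both calls (adjusted p = 0.187 in anti-Ly6G and 0.0699 in IgG), and leaving out ZT 13 or ZT 17 ended that in anti-Ly6G.

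Genes of chromosome structure had the earliest median peak of the 7 roles in gut. Smc2, the ATPase core of condensin, peaked at 23.8 ± 0.47 h in anti-Ly6G and 24.0 ± 0.61 h in IgG gut, and Incenp, the scaffold of the passenger complex, at 23.7 ± 0.44 and 0.29 ± 0.53 h. Top2a, the topoisomerase that untangles sister chromatids, had the smallest p in anti-Ly6G. At ZT 1 Top2a had 141, 149 and 159 units in anti-Ly6G and 117, 156 and 178 in IgG gut. At ZT 13 it had 32.9, 42.2 and 55.8 units in anti-Ly6G and 34.9, 42.6 and 58.5 in IgG, below every ZT 1 library. Its folds were 3.14 (limma adjusted p = 5.74e-08) and 2.74 (limma adjusted p = 5.62e-07). Mki67 had folds of 2.85 and 2.52 with peaks at 1.37 and 1.57 h. Role medians of the peak were 0.44 h in anti-Ly6G and 0.90 h in IgG for chromosome structure, and 2.37 and 2.78 h for the 3 centromere genes.

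In gut the median peaks of the checkpoint, spindle and cytokinesis roles lay between those 2 roles, while single genes did not all do so. Aurkb, the kinase of the passenger complex, had folds of 2.75 in anti-Ly6G and 2.29 in IgG with peaks at 0.41 ± 0.41 and 0.87 ± 0.51 h. Kif11, the motor that pushes spindle poles apart, had folds of 3.21 and 2.59. Kif2c, a kinesin that takes microtubules apart, had 2.89 and 2.67 with the smallest p in IgG (limma adjusted p = 3.37e-07). Anln, the ring protein anillin, had 3.07 and 2.60, and Ect2, which sets the cleavage plane, 2.76 and 2.61. Kif20a, a motor of the central spindle, had the highest anti-Ly6G fold of the 40, at 3.65, against 3.14 in IgG. Bub1b, a checkpoint kinase-like protein, had 2.44 in anti-Ly6G and 2.64 in IgG. Cdc20, which the checkpoint holds back, peaked at 2.59 ± 0.63 h in anti-Ly6G and 2.65 ± 0.63 h in IgG, against 1.15 ± 0.49 and 1.57 ± 0.45 h for Bub1b. Cenpf, a kinetochore protein, had folds of 2.72 and 3.19 and peaks at 2.47 and 2.85 h. The SE of single peaks, between 0.40 and 0.72 h for 39 members in anti-Ly6G, exceeds most steps between neighbours in this order. Between the 2 sets of mice the order had a Spearman rho of 0.951 and a Pearson r of 0.934 between the peaks of the 39 members in anti-Ly6G and in IgG, across genes that share libraries and are no independent replicates. A peak here is the crest of a fitted wave over 6 sampled times.

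**Figure D2:**
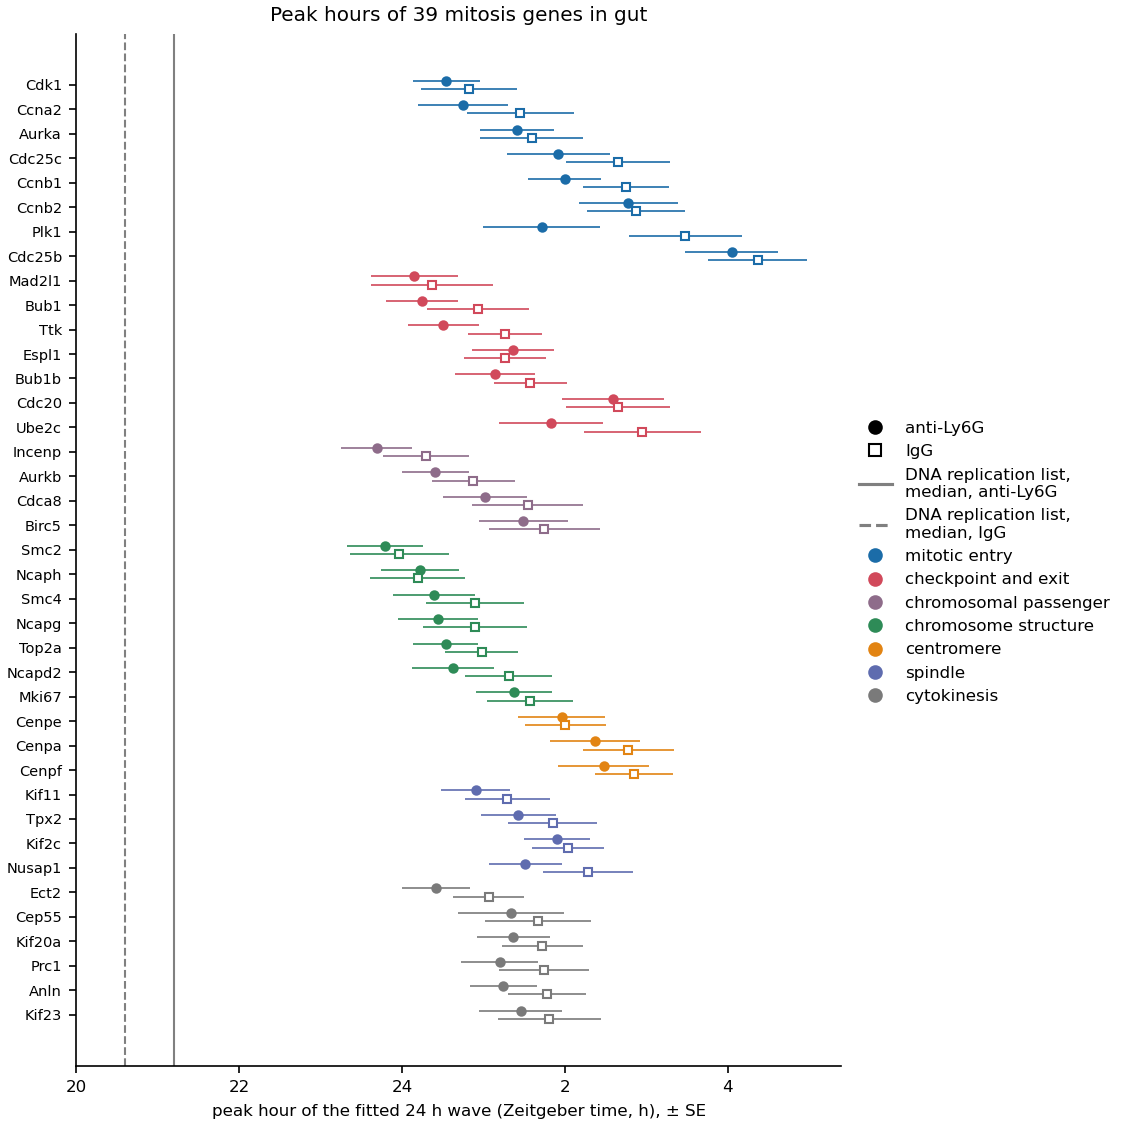
Peak hour of the fitted 24 h wave (x axis, Zeitgeber time, ± SE) for 39 mitosis genes in gut, ordered by role and by IgG peak, in anti-Ly6G (filled) and IgG (open) mice. Peaks lie between 23.7 and 4.4 h, after the medians of the DNA replication genes at 21.2 h (solid line, anti-Ly6G) and 20.6 h (dashed line, IgG).

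Genes of neighbouring processes in gut were described from lists. Of 49 DNA replication genes, 46 were rhythmic in anti-Ly6G and 44 in IgG, with median peaks at 21.2 and 20.6 h, against 1.34 and 1.59 h for the 39 mitosis genes. E2f2, a transcription factor of S phase, had the smallest p of that list, with folds of 4.88 and 4.60 and peaks at 22.1 and 22.2 h. Of 74 other genes of mitosis, 68 and 65 were rhythmic, with median peaks at 0.74 and 1.16 h, Melk and Kntc1 having the smallest p in anti-Ly6G, and Sgo2a and Ccnf in IgG. Markers of cell types in the gut wall were set beside the 24.6% of all genes rhythmic in anti-Ly6G and 33.6% in IgG. These lists hold few tested markers, so counts near the shares are not read as results about the cell types. Of 4 tested enterocyte markers 1 was rhythmic in each treatment. Of 8 crypt stem markers 3 were rhythmic in each treatment, with peaks between 22.4 and 7.83 h in anti-Ly6G and between 17.3 and 7.73 h in IgG. Of 7 goblet markers 0 were rhythmic in anti-Ly6G and 1 in IgG, at 13.7 h, and of 6 smooth muscle markers 2 in anti-Ly6G, at 5.06 and 6.87 h, and 0 in IgG. The summed crypt markers ranged between 188 and 252 units in anti-Ly6G and between 184 and 253 in IgG, while the summed mitosis genes ranged between 445 and 1675 and between 434 and 1636. The part of cell composition in the daily pattern was not tested.

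Between treatments no mitosis gene passed the threshold in gut. Of 40 members 0 were called in limma and 0 with voom weights, where limma called 0.0132% of all tested genes. An unadjusted p under 0.05 in limma was reached by 6 members and by 1932 of 15158 genes. Log2 differences of 39 of 40 members were below 0, with a median of -0.10, against 0.00 for all genes tested. Of the 15158 genes 7533 lay above 0. The members share libraries and are no independent replicates. Smc4, the partner of Smc2, had 53.7 ± 11.6 units in anti-Ly6G and 58.2 ± 11.1 in IgG gut (SD, n = 18 each), a log2(value + 1) difference of -0.12 ± 0.039 (SE) that did not pass (limma adjusted p = 0.184), and was lower at 6 of 6 ZT. Ncapg, a condensin subunit, had 11.5 ± 5.20 and 13.4 ± 4.85 units and -0.24 (adjusted p = 0.248), and Top2a had -0.18 (adjusted p = 0.336). No member had a different daily wave between treatments: 0 of 40 passed and 0% of all genes did, with 0 members at an unadjusted p under 0.05. The smallest adjusted p was 0.839, for Bub1.

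In ear skin the mitosis genes were higher in iDTR than in control mice. Of 40 members 38 rose and 0 fell (limma, adjusted p under 0.05), where 30.6% of all tested genes were called higher and 32.4% lower. The exceptions were Espl1 and Wee1, with log2 differences of 0.13 and -0.04. The median log2 difference was 0.94, against -0.02 for all genes tested. At every ZT, 22 of 40 members were higher in the iDTR mouse than in the control mouse, where 10.6% of all tested genes were. The summed members had a lowest value of 1032, a median of 1714 and a highest of 3145 units in iDTR, against 812, 950 and 1131 in control.

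Top2a in iDTR skin had 77.8 units in the lowest, 152 in the median and 266 in the highest mouse, against 46.5, 62.2 and 75.7 in control skin. All iDTR mice lay above all control mice for Top2a, Smc2 and Smc4, which makes 3 of 40 members, where 4.62% of all tested genes met the same criterion, and the groups overlapped in the other 37 members. Top2a rose by 1.22 ± 0.125 on the log2 scale (SE, limma adjusted p = 6.1e-12). Smc2 had 29.0, 48.4 and 77.3 units in iDTR and 18.1, 24.6 and 27.3 in control, and rose by 1.01 ± 0.098 (limma adjusted p = 1.72e-12). Smc4 rose by 0.58, the smallest rise among the 7 chromosome structure genes, and Ncapg by 1.02. Anln, at 93.6 ± 31.6 in iDTR and 45.2 ± 6.22 units in control (SD, n = 16 each), rose by 0.97, and Cep55, a protein of abscission, by 1.15. Cdk1 rose by 1.13 and its S and G2 phase partner Ccna2 by 1.19. The other genes standing for the roles were Ccnb1 with 1.04, Plk1 with 1.00, Aurkb with 0.98, Cdc20 with 0.97, Mki67 with 0.95, Kif11 with 0.94 and Cenpf with 0.68, each past the threshold. By role, 8 of 9 entry genes, 6 of 7 checkpoint and exit genes and all genes of the other roles rose, with role medians between 0.72 (centromere) and 0.98 (entry and passenger complex).

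**Figure D3:**
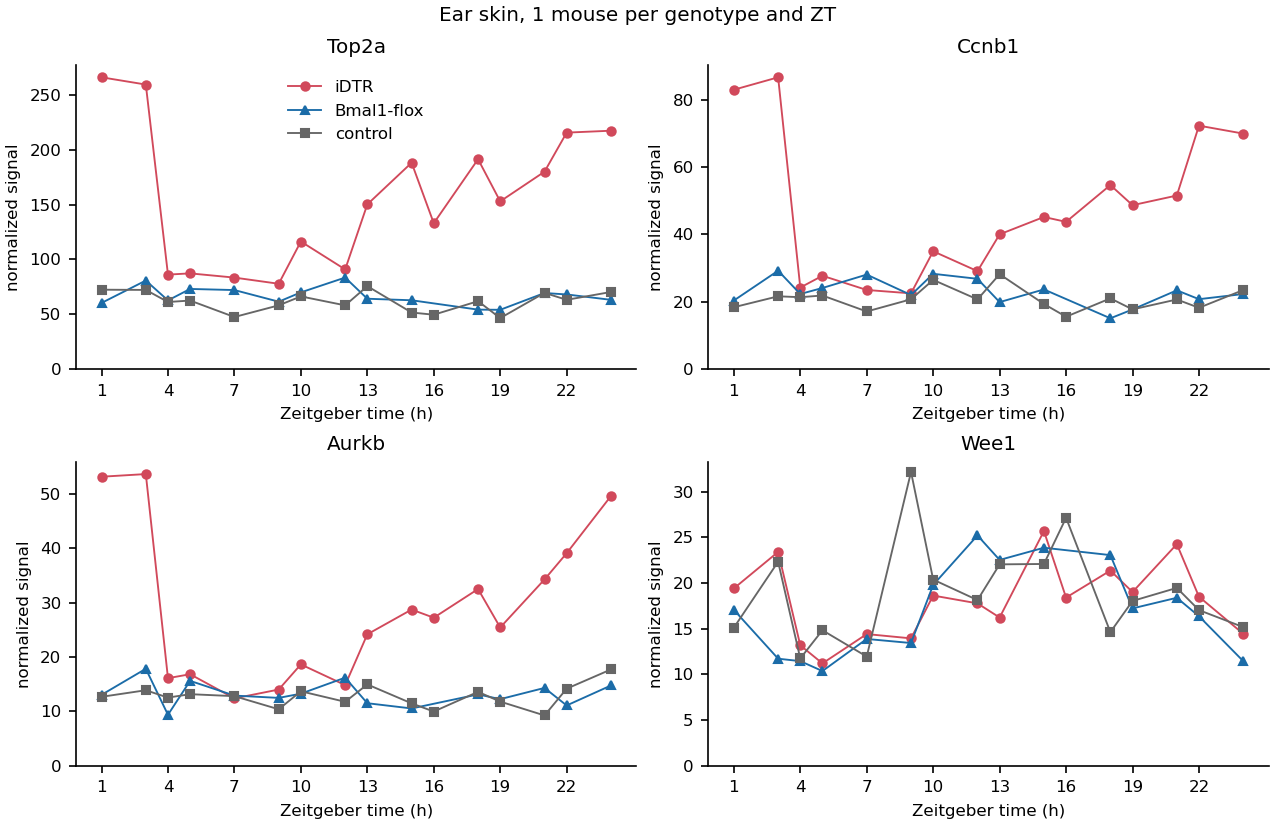
Normalized signal of Top2a, Ccnb1, Aurkb and Wee1 (y axis) in ear skin at each ZT (x axis) for iDTR (circles), Bmal1-flox (triangles) and control (squares) mice, with 1 mouse per point. In iDTR mice Top2a reached 266 units at ZT 1 and 78 at ZT 9, while Wee1 overlapped between genotypes.

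Within iDTR skin the members changed with ZT together. Of 40 members 39 were rhythmic in iDTR (10.9% of all genes), against 0 of 40 in control (0.383% of all genes), where 2 members had an unadjusted p under 0.05 in limma and voom weights also gave 0. The 39 peaks in iDTR lay between 21.2 and 22.6 h, with a median fold of 2.28, and the exception was Wee1. Incenp (fold 2.26, peak 22.4 h), Smc2 (2.14, 21.4 h), Kif11 (2.64, 21.3 h), Aurkb (2.75, 21.8 h), Ccnb1 (2.55, 21.6 h) and Ncapd2, a condensin subunit (2.23, 21.8 h), had the smallest p. The 24 h wave does not describe all of this. The number in the library titles runs with ZT, beginning at ZT 4 and ending at ZT 3, and all 40 members were higher at ZT 3 than at ZT 4 in iDTR. Their ratios of ZT 3 over ZT 4 had a median of 3.31 and reached 4.97, against a median of 1.10 in control. Ccnb1 in iDTR had 86.7 units at ZT 3 and 24.2 at ZT 4. A daily pattern and a change over the order of the titles therefore cannot be told apart. A difference of the wave between iDTR and control passed for 4 of 40 members (Ccnb2, Cep55, Ccnb1 and Ube2c), where 0.144% of all genes passed and 39 members had an unadjusted p under 0.05. With voom weights or with no filter on low values 0 passed, and with library weights 31.

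The iDTR rise was larger in the libraries with higher title numbers, in a split chosen after the data were seen. Numbers 1 to 8 are ZT 4 to 15, and numbers 9 to 16 run from ZT 16 to ZT 3. The split thus describes the same change with ZT or title order again and is no separate support for it. In numbers 1 to 8, 31 members rose and Espl1 fell by 0.20 on the log2 scale (limma adjusted p = 0.039), with a median of 0.47, where 24.8% of all genes were higher. In numbers 9 to 16, 39 members rose with a median of 1.35, where 26.2% of all genes were higher. Top2a was 0.81 higher on the log2 scale in the first set and 1.64 in the second, Ccnb1 0.45 and 1.62, and Cenpf 0.17 (adjusted p = 0.245) in the first.

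Genes of other lists also differed in iDTR skin, where 30.6% of all tested genes were called higher and 32.4% lower. All 7 sebaceous gland markers fell (median log2 difference -3.84), and their sum ranged between 72.0 and 116 units in iDTR and between 1149 and 1934 in control. All 6 tested mature neutrophil markers, of 12 listed, rose (median 1.02). Sums of the 10 with rows lay between 63.6 and 165 units in iDTR and between 27.7 and 63.9 in control. Ly6g and Camp had no row, and the rest fell under the filter. The 1 tested granulocyte progenitor marker fell (log2 difference -0.62). Of 7 basal keratinocyte markers 5 rose and 1 fell, with sums of 16245 to 27265 units in iDTR and 13086 to 17106 in control. Of 49 DNA replication genes 48 rose, and of 74 other mitosis genes 70 rose, with Mybl2 at 1.43. Of 15 cell cycle inhibitors 6 rose and 6 fell. The part of these cell types in the rise of the mitosis genes was not tested.

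In Bmal1-flox skin no member passed against control. The Bmal1-flox mice had no treatment while the control mice had DT, so genotype and DT cannot be told apart here. Of 40 members 0 were called in limma and 0 with voom weights, where limma called 5.63% of all genes. An unadjusted p under 0.05 in limma was reached by 2 members and by 2951 of 15946 genes. Log2 differences of 39 members lay above 0, with a median of 0.11, against 8008 of 15946 genes and a median of 0.00 for all genes tested. The members share libraries and are no independent replicates. Espl1 had 33.9 ± 3.57 units in Bmal1-flox (n = 15) and 29.6 ± 2.46 in control (n = 16), a log2 difference of 0.19 ± 0.080 (limma adjusted p = 0.184). Prc1, which bundles the central spindle, had 0.25 (adjusted p = 0.19) and Plk1 0.19 (adjusted p = 0.488). With library weights Espl1 passed. No wave differed from control (0 of 40, 0% of all genes, 0 at an unadjusted p under 0.05). Only Wee1 was rhythmic among the 40 in Bmal1-flox skin (0.326% of all genes), with a fold of 2.01, a peak at 15.4 ± 0.74 h and a limma adjusted p of 0.020. Wee1 there had 10.4 units at ZT 5 and 25.2 at ZT 12, and leaving out the mouse at ZT 3, 4, 5, 12, 13, 15 or 18 ended the call (highest adjusted p = 0.0759).

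**Figure D4:**
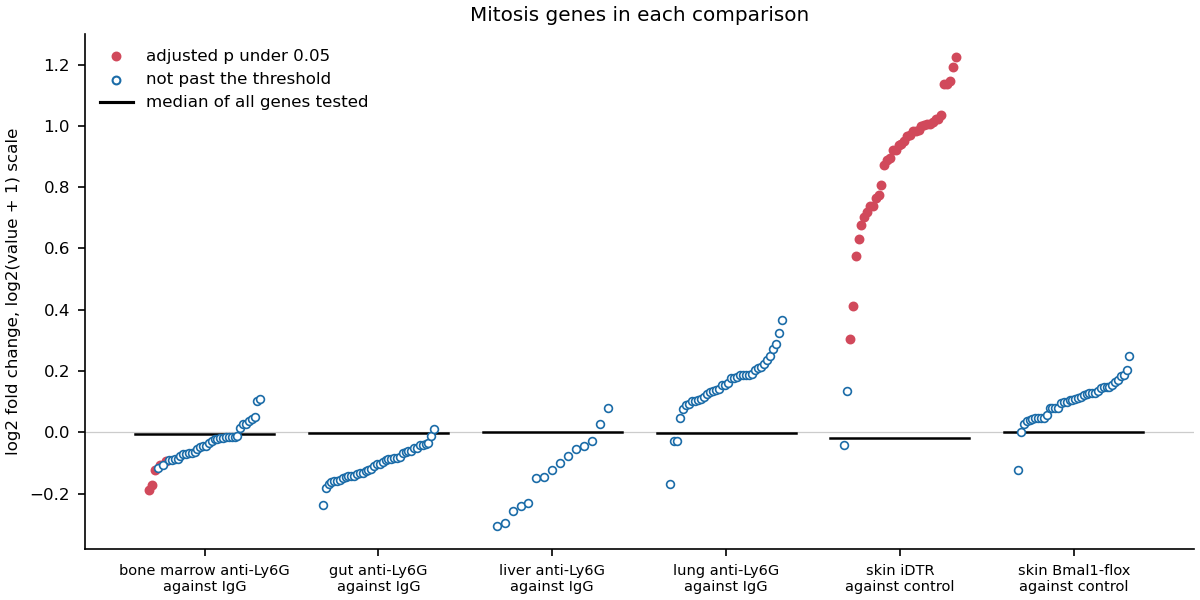
Log2 difference on the log2(value + 1) scale (y axis) of each tested mitosis gene in the 6 comparisons (x axis), sorted within a comparison, with filled points for an adjusted p under 0.05 and a black line at the median of all genes tested. Filled points number 38 in iDTR skin and 5 in bone marrow, and the other comparisons have none.

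In bone marrow, where these genes were highest, anti-Ly6G mice differed little. Of 40 members 5 fell and 0 rose (limma, adjusted p under 0.05), where 7.16% of all tested genes fell and 9.95% rose. At an unadjusted p under 0.05 in limma were 14 members, beside 4378 of 14289 genes. Smc2 had 264 units in the lowest, 309 in the median and 353 in the highest anti-Ly6G library, against 279, 353 and 405 in IgG. The ranges overlapped, and the mean was lower in anti-Ly6G at 6 of 6 ZT. Smc2 fell by 0.17 on the log2 scale (SE 0.035, adjusted p = 0.000821). Cenpf, at 225 ± 25.2 units in anti-Ly6G and 257 ± 33.5 in IgG (SD, n = 18 each), fell by 0.19 (adjusted p = 0.00963). Ccnb1 fell by 0.12 (0.0263), Mad2l1, a checkpoint protein, by 0.09 (0.0431) and Ncapg by 0.11 (0.0461), each lower at 5 of 6 ZT. The other genes standing for the roles did not pass, with log2 differences between -0.12 (Mki67, adjusted p = 0.13) and 0.11 (Wee1, adjusted p = 0.134). Leaving out ZT 1, 5 or 21 left 2, 3 and 1 calls, and any of 16 single libraries 3, while leaving out ZT 17 gave 9 and any of 3 other libraries 8 or 9. Smc2 was called in every one of these fits. Beside this, all 8 granulocyte progenitor markers rose (median 0.48; Mpo, Prtn3 and Elane with the smallest p), 11 of 13 B cell precursor markers fell (median -0.30) and 9 of 13 erythroid markers fell (median -0.19). Of 12 mature neutrophil markers 4 rose and 1 fell (median 0.13). Of 49 DNA replication genes 12 fell. The part of these cell types in the falls was not tested.

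Daily changes in bone marrow were small. In anti-Ly6G 0 of 40 members were rhythmic in limma (0.406% of all genes) and 0 with voom weights. There, 3 members had an unadjusted p under 0.05 in limma, beside 1785 of 14289 genes. In IgG 3 of 40 were rhythmic (1.62% of all genes). There, 24 members had an unadjusted p under 0.05 in limma, beside 2267 of 14289 genes. Cdc20 in bone marrow IgG had 113, 122 and 134 units at ZT 5 and 90.3, 94.3 and 95.8 at ZT 13, with a fold of 1.27 and a peak at 2.72 h (limma adjusted p = 0.00509). Nusap1, which bundles spindle microtubules, peaked at 1.53 h (adjusted p = 0.033) and Ube2c, the ubiquitin carrier of the anaphase-promoting complex, at 23.6 h (adjusted p = 0.0407). Leaving out ZT 5 or ZT 17 left 0 rhythmic members, and without 1 IgG library at ZT 5 there were 9. The wave differed between treatments for 0 of 40 members (0.007% of all genes; 3 at an unadjusted p under 0.05, smallest adjusted p = 1.00).

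In liver 0 of 15 tested members were called between treatments in limma (1.4% of all genes) and 0 with voom weights. Members at an unadjusted p under 0.05 in limma numbered 6, beside 1695 of 12504 genes. Wee1 had a log2 difference of -0.30 (adjusted p = 0.152), Top2a -0.26 (0.166) and Smc2 -0.23 (0.225). Wee1 stood out by its daily change. In liver at ZT 9 Wee1 had 10.2, 10.9 and 13.3 units in anti-Ly6G and 13.5, 15.6 and 18.9 in IgG. At ZT 1 it had 1.30, 1.62 and 2.03 units in anti-Ly6G and 1.68, 1.83 and 1.86 in IgG. These times did not overlap in either treatment. Its peak was at 11.4 ± 0.56 h with a fold of 3.57 in anti-Ly6G (limma adjusted p = 1.31e-05) and at 11.2 ± 0.47 h with a fold of 4.59 in IgG (limma adjusted p = 4.35e-07). Rhythmic members numbered 2 of 15 in anti-Ly6G (34.7% of all genes) and 4 of 15 in IgG (42.9%). The others were Cenpa, the histone of the centromere, with folds of 1.56 and 1.94 and peaks at 6.47 and 4.14 h, and in IgG also Smc4 (1.65) and Tpx2, a spindle assembly factor (1.67). Leaving out ZT 5 or ZT 21 left Wee1 as the 1 rhythmic member in anti-Ly6G. The wave differed for 0 of 15 (0.008% of all genes; 0 at an unadjusted p under 0.05).

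**Figure D5:**
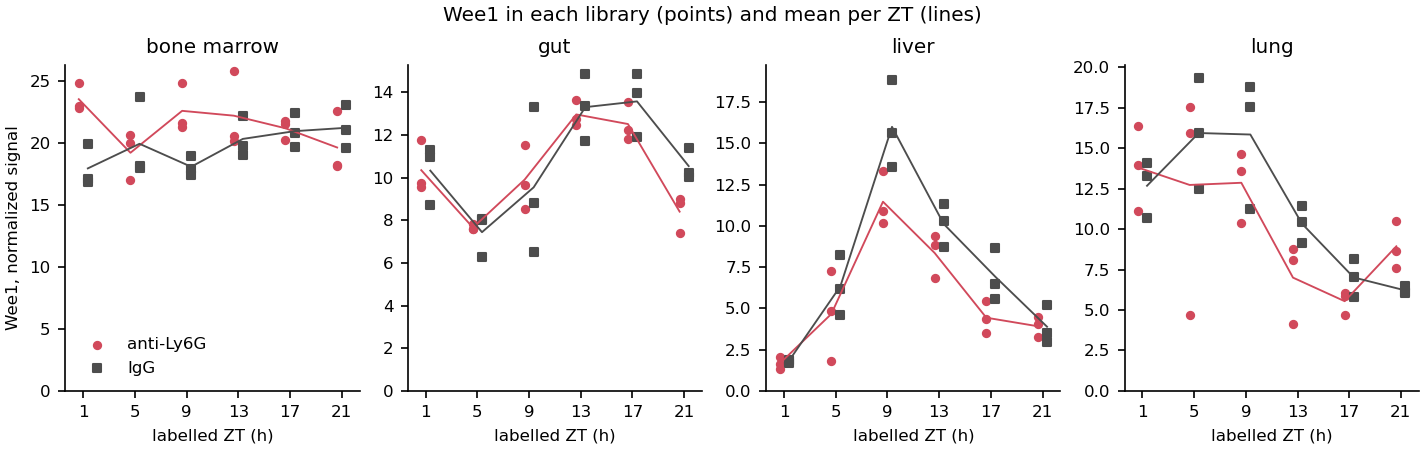
Normalized signal of Wee1 (y axis) in each library at its labelled ZT (x axis) in bone marrow, gut, liver and lung, with anti-Ly6G as circles and IgG as squares and lines through the mean per ZT. In liver Wee1 is high at ZT 9 and low at ZT 1, and in gut it is high at ZT 13 and 17 and low at ZT 5.

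In lung 0 of 38 tested members were called between the treatments as labelled in limma (0% of all genes) and 0 with voom weights. Members at an unadjusted p under 0.05 in limma numbered 22, beside 1462 of 15641 genes. Of the 38 members 35 lay above 0, with a median log2 difference of 0.16, against 7799 of 15641 genes and a median of 0.00. The members share libraries and are no independent replicates. Aurkb had 2.35 ± 0.70 units in anti-Ly6G and 1.63 ± 0.30 in IgG (SD, n = 18 each), a log2 difference of 0.33 ± 0.085 (adjusted p = 0.335), and was higher at 6 of 6 ZT. Mki67 had 0.37 and Ccna2 0.27 (adjusted p = 0.355 each). Erythroid markers had a median of 0.69 in the same comparison, none of 9 past the threshold, and the part of blood was not tested. Rhythmic members numbered 6 of 38 in anti-Ly6G (12.7% of all genes) and 4 of 38 in IgG (11.2%). Cdc25b had the smallest p in both, peaking at labelled hours of 23.5 ± 0.48 in anti-Ly6G and 2.40 ± 0.46 in IgG. At ZT 21 Cdc25b had 32.4, 33.2 and 37.4 units in anti-Ly6G, against 18.3, 19.5 and 20.4 there at ZT 13, with no overlap. Wee1 had folds of 2.14 and 2.49 with peaks at 4.09 h in anti-Ly6G and 6.60 h in IgG. The others were Plk1, Ncaph, Smc2 and Smc4 in anti-Ly6G and Smc2 and Mad2l1 in IgG, and leaving out single ZT gave between 3 and 5 rhythmic members in anti-Ly6G (3 without ZT 1, 5, 9 or 17) and between 2 and 6 in IgG (2 without ZT 1 or 13). The wave differed for 0 of 38 (0.0511% of all genes; 11 at an unadjusted p under 0.05, smallest adjusted p = 0.141, for Cdc25b).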

How the data were processed

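Total RNA (200 ng per library) went through the NEBNext Ultra protocol, and a HiSeq2500 gave single reads of 50 nt, per the labels' protocols. Reads were trimmed with Cutadapt 1.7.1, mapped to the GRCm38 transcriptome of Ensembl build 84 and quantified with RSEM 1.2.20 and Kallisto 0.43.1, per the labels' protocols. The submitters' processing notes name mm10, CASAVA 1.8, RSEM 1.7.1 and limma 3.46, and the method of normalization is not given in the sources used here. Each tissue has 1 table of normalized signal, deposited on a linear scale, with 0 columns outside the samples. Its smallest steps fitted RSEM's estimated counts raised by 0.5 and scaled per library. 1 read equalled between 0.0319 and 0.131 units.

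Values were transformed as log2(value + 1), and genes with a mean of at least 1 unit were tested with limma 3.58.1 in R 4.3.3, with a mean-variance trend, two-sided, with Benjamini-Hochberg adjustment across a tissue's tested genes (threshold 0.05). Folds understate the change of low genes. Antibody effects had ZT as a factor. Skin effects were fitted over all 47 libraries with a common 24 h wave. Rhythms were F tests of a cosine and a sine of 24 h in each group, and differential rhythm was tested on the difference of these terms between groups (F test). The script was tested on simulated gut and skin counts with known changes. Genes were drawn independently with a common dispersion and exact 24 h waves, so misfit of the wave was not covered. P-values of antibody effects rest on the spread between mice, mixed with any treatment difference that varies with ZT. In skin, with 1 mouse per genotype and ZT, and in the rhythm tests, that spread is mixed with misfit of the wave. The skin fits share 1 spread across genotypes. Coordinates and exon lengths came from GENCODE M21 on GRCm38.

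Named with values are, per comparison, the called members of smallest p, at most 8 (the 3 smallest where none passed), per group up to 6 rhythmic ones, and 11 genes standing for the roles. Other members are named as extremes. Members, lists and rules were chosen with earlier results of these data known. Exons of 13 members overlap those of another gene, mostly on the other strand, and Ccnb1 and Ccnb2 have named pseudogenes; whether counting used strand is not given in the sources used here, so their reads may be shared. Alternatives covered the pseudocount (0.1 and 5), the filter (none, or a mean of 4), quantile normalization, voom and library weights, the time term, a replicate block and leaving out each ZT and library.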

Additional observations from a re-analysis of the deposited data

Results flagged for a closer look

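In ear skin the daily wave differed between iDTR and control mice, by a test of the difference itself, for Ccnb2 (limma adjusted p = 0.0409), Cep55 (0.0409), Ccnb1 (0.0409) and Ube2c (0.0467). In iDTR skin, Ccnb2, a cyclin B, had a peak-to-trough fold of 2.77, Cep55 2.28, Ccnb1 2.55 and Ube2c 2.62. Of 40 members 39 had an unadjusted p under 0.05 for this difference. These 4 calls were not stable: 0 remained with no filter on low values or with voom weights, and 31 members passed with library weights.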

How the results depend on the processing

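The counts of 40 rhythmic members in each gut treatment, of 38 changed and 39 rhythmic members in iDTR skin, and of 0 members changed in gut, liver and lung were within 1.5 times under every alternative run. In all, counts of members were within 1.5 times in 182 of 191 other settings and in 919 of 1001 fits without 1 ZT or library. Named members kept their direction and side of the threshold in 1015 of 1024 and in 5004 of 5146. In bone marrow 8 members were called with library weights and 2 with no time term, against 5, and between 1 and 9 with a ZT or library left out. Rhythmic members of bone marrow IgG numbered 9 with library weights, against 3, and between 0 and 9 with a ZT or library left out; those of bone marrow anti-Ly6G numbered 0 to 1. In liver anti-Ly6G quantile normalization gave 4, against 2, and leaving out gave 1 to 4. Leaving out gave 2 to 6 in lung IgG and 3 to 6 in lung anti-Ly6G. In Bmal1-flox skin 1 member was called with library weights, against 0, and leaving out gave 0 to 1 rhythmic members. The difference of waves in iDTR skin gave 0 with no filter, 0 with voom weights, 31 with library weights and 27 without ZT 1 and ZT 3, against 4, and 0 to 29 with 1 library left out. Reversed signs were of values that did not pass: Wee1 in iDTR skin at 0.10 and Kif11 in Bmal1-flox skin at -0.065 in title numbers 9 to 16, both settings chosen after the data were seen. With a ZT or library left out, log2 differences ran between -0.11 and 0.030 for Ccnb1 in gut, -0.022 and 0.22 for Ccnb1 in lung, -0.051 and 0.020 for Cdc20 in bone marrow, -0.10 and 0.018 for Cdc20 in gut, -0.084 and 0.00065 for Wee1 in gut, and -0.090 and 0.017 for Wee1 in iDTR skin. The cause was not tested. A replicate block of title numbers gave 0 members in gut, 38 in iDTR and 0 in Bmal1-flox skin, changing no call. In gut the correlations of same-numbered pairs ran between -0.22 and 0.18 (median 0.03), and those of other pairs between -0.19 and 0.23 (median -0.03). Above 0.1 were 6 of 18 same-numbered and 6 of 36 other pairs. The numbers were not taken to pair mice, though these values do not settle it. No paired analysis was possible in bone marrow, liver and lung because their titles carry no replicate numbers. In liver 18 of 33 listed members fell under the filter, at 10.3 M to 23.2 M recovered reads per library, against 10.2 M to 30.9 M in gut, where all 40 passed.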
